A study of Mus musculus with 14 samples.

Results

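WNT proteins are secreted lipid-modified ligands that bind Frizzled receptors together with the co-receptors LRP5 or LRP6. In the canonical branch this stops the destruction complex, in which AXIN1 and AXIN2 are scaffolds, from degrading beta-catenin, and beta-catenin then acts with the DNA-binding TCF/LEF proteins. Secreted Frizzled-related proteins bind WNT ligands, Dickkopf proteins block the LRP co-receptors, and R-spondins strengthen the response by keeping Frizzled receptors at the cell surface. In the mouse gonad WNT4 and RSPO1 are known for their part in ovary development.

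The genes described here are the WNT ligands, Frizzled receptors, LRP5 and LRP6 co-receptors, secreted inhibitors, R-spondins, Axins and TCF/LEF factors of the mouse, as measured in testis. They were chosen by name: every gene of the array whose symbol begins with Wnt, Fzd, Sfrp or Dkk and a digit, or with Rspo or Tcf7, and Lrp5, Lrp6, Axin1, Axin2 and Lef1. This gave 48 of the 27962 gene names on the array, measured by 69 probes of 60 bases, and the brightest probe stood for each gene. They are 19 WNT ligands, 10 Frizzled receptors, 2 LRP co-receptors, 4 secreted Frizzled-related proteins, 4 Dickkopf proteins, 4 R-spondins, 2 Axins and 3 TCF/LEF factors. The rule for genes used names alone, but it was set with earlier results of these data known, and the brightest probe was picked by its measured signal.

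Total RNA of whole testis from C57BL/6 mice was measured on Agilent single-colour arrays. The groups were 4 Glis3KO2 and 4 WT samples at 1 week of age, and 3 Glis3KO2 and 3 WT samples at 4 weeks. Glis3KO2 is the submitters' genotype name for mice with a disrupted Glis3, which encodes a Krüppel-like zinc finger protein of the GLI-similar group. The allele is not described further, no group was treated, and the sample labels' 4 weeks was followed where the series description gives 3 weeks. The labels do not say that samples are separate animals, so p-values measure only the spread between samples.

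A level is the log2 of a probe's signal over its array's 75th percentile. A difference is Glis3KO2 minus WT on that log2 scale where no other contrast is given, and a gene was called at a limma adjusted p under 0.05 over all genes tested. A signal not well above background is only an upper bound of the level. On 1-week arrays 74.3% to 78.5% of spots were well above background in Glis3KO2, against 82.6% to 86.6% on WT replicates 1 to 3 and 76.7% on WT replicate 4. Glis3 itself was not above background on any of the 4 Glis3KO2 arrays and was on all 4 WT arrays at 1 week (-8.04 ± 0.84 and -4.87 ± 0.18, SD, exact two-sided permutation p = 0.0286, the smallest possible), at least 4.25-fold lower, and at 4 weeks it was at background on all 3 arrays of each genotype. The 1-week fold of Glis3 holds for the background correction used: with normexp background correction the difference was -0.46. Whether the Glis3 probe lies in the disrupted stretch is not stated. The 1-week Glis3KO2 replicates 1 and 4 also carried signal of the epididymal gene Crisp1 (-0.69 on replicate 1, near the 75th percentile on replicate 4). Crisp1 was not above background on Glis3KO2 replicates 2 and 3 or on any 1-week WT array. Of the other epididymal markers, Spink8 (0.25 and 0.73) and Defb20 (-3.44 and -4.75) were also higher on replicates 1 and 4 than on the other 1-week arrays with a value. Rnase10 and Lcn8 were at background on both, and Lcn10 (-5.04 and -4.96) lay within the range of the other 1-week arrays. Counts were also taken without these 2 arrays. At 4 weeks Crisp1 was at -6.80, -6.28 and -8.17 in Glis3KO2 and at -0.18, -3.05 and -5.19 in WT, highest on WT replicate 1. Of 5 epididymal markers tested at 4 weeks, 2 were called lower in Glis3KO2 and 0 higher. The epididymal gene Spink8 read -3.18, -0.87 and -1.35 in Glis3KO2 and 1.20, -0.78 and -1.35 in WT. Defb20, also epididymal, read -3.99, -4.18 and -3.92 in Glis3KO2 and -4.02, -4.48 and -4.52 in WT. Testis identity was clear: all 14 Sertoli cell markers and all 6 general germ cell markers were above background on every array.

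At 1 week the WNT genes that differed were mostly lower in Glis3KO2. Of 44 tested genes 9 were lower and 1 was higher, a share of 22.7%, against 10% of all 22678 genes tested (3.90% higher and 6.14% lower). The genes called lower were the ligands Wnt3, Wnt3a and Wnt7a, the receptor Fzd3, the R-spondins Rspo2 and Rspo4, the scaffold Axin2, and the factors Tcf7 and Lef1. The only gene called higher was the ligand Wnt6. The median difference of the 44 was -0.02, against -0.07 for all genes.

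The probes behind these 10 calls are shown because each call rests on its probe, and because Wnt3 has 2 probes that part ways later. Sequences and positions are those of the scanner files, with the mm7 build, and no annotation of that build was used here to place them in exons or UTRs. All are in lower case except the stretch of the Fzd3 probe that best matches the repeated telomeric unit, though not at every base, in capitals.
Wnt3 brighter probe, chr11:103925136-103925195, plus strand: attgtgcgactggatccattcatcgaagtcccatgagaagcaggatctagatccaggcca
Wnt3 dimmer probe, chr11:103926765-103926824, plus strand: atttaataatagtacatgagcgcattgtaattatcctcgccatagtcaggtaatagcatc
Wnt3a, chr11:59329702-59329761, minus strand: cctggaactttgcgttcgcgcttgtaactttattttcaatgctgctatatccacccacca
Wnt7a, chr6:91447162-91447221, minus strand: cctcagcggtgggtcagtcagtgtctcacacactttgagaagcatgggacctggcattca
Wnt6, chr1:75024567-75024626, plus strand: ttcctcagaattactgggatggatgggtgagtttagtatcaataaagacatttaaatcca
Fzd3, chr14:60062430-60062490, minus strand: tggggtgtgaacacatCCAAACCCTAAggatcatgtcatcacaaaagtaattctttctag
Rspo2, chr15:43029149-43029208, minus strand: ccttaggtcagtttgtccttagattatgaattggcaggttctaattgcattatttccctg
Rspo4, chr2:151610764-151610823, plus strand: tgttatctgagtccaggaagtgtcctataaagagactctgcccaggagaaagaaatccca
Axin2, chr11:109059707-109059766, plus strand: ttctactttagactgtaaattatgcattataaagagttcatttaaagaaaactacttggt
Tcf7, chr11:52209369-52209428, minus strand: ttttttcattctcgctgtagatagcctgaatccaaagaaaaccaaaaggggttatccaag
Lef1, chr3:131060609-131060668, plus strand: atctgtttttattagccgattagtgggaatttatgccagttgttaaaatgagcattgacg

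Among the ligands, Wnt3, which activates the beta-catenin branch, had log2 signals of -5.31, -4.44, -4.15 and -6.91 on the 1-week Glis3KO2 arrays, against -1.97, -2.46, -2.33 and -2.36 on the WT arrays. The 4 WT arrays lay close together, and every Glis3KO2 array was below them, replicate 4 at background. The difference was -2.92 (SE 0.55, limma adjusted p = 0.0257). Its dimmer probe gave -2.70 in a fit of all probes. Wnt3a, the closest relative of Wnt3, read -9.01, -7.85, -7.49 and -9.14 in Glis3KO2, none above background, and -4.74, -6.07, -5.54 and -6.60 in WT, all above background. Wnt3a passed the filter through the WT arrays alone, so its limma adjusted p of 0.0264 rests on background signal in Glis3KO2. With the background correction used, Wnt3a was at least 2.32-fold lower in Glis3KO2. With normexp background correction its difference was -0.31 and was not called.

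Wnt7a, a ligand known from patterning of the female reproductive tract, had -6.48, -6.55, -5.91 and -7.69 in Glis3KO2 and -4.74, -5.56, -4.99 and -5.25 in WT. Glis3KO2 replicate 4 was again at background and the ranges did not overlap. The difference was -1.52 (SE 0.36, adjusted p = 0.0425). Wnt6 had 4.75, 4.65, 5.08 and 5.30 in Glis3KO2 and 3.98, 4.23, 4.08 and 4.27 in WT, a difference of 0.80 (SE 0.17, adjusted p = 0.0327), or 1.75-fold. Every Glis3KO2 array was above every WT array, and a dimmer Wnt6 probe gave 0.77.

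Of the 3 tested R-spondins 2 were called, both lower. Rspo2 was at -4.26, -3.76, -2.79 and -4.62 in Glis3KO2 and at -1.59, -1.41, -1.69 and -1.36 in WT, 5.08-fold lower (-2.34, SE 0.36, adjusted p = 0.0137). The Glis3KO2 arrays were spread more widely than the WT arrays and all lay below them. Rspo4 was at -5.01, -4.73, -3.99 and -5.71 in Glis3KO2 and at -2.86, -3.35, -3.44 and -3.51 in WT (-1.57, SE 0.34, adjusted p = 0.0362). Its dimmer probe gave -1.10 and was not called in a fit of all probes (adjusted p = 0.255). Rspo1 was not called (0.49, adjusted p = 0.243), and Rspo3 was above background on 1 of 4 arrays of each genotype and was not tested.

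The inner part of the pathway had 3 genes called lower. Axin2, a scaffold of the destruction complex and itself a widely used target gene of the pathway, had -1.71, -2.16, -2.14 and -2.33 in Glis3KO2 and -1.18, -1.45, -1.56 and -1.43 in WT. The groups were separated by a small gap, with a difference of -0.68 (SE 0.16, adjusted p = 0.041). Axin1 did not pass the test (0.01, adjusted p = 0.949). Lef1 read -2.66, -3.11, -2.55 and -3.64 in Glis3KO2 and -1.55, -2.04, -1.80 and -1.66 in WT. Its difference was -1.23 (SE 0.25, adjusted p = 0.0309) and a dimmer probe gave -1.23. Tcf7, which encodes TCF1, read 0.06, 0.25, 0.21 and 0.35 in Glis3KO2 and 1.03, 0.96, 0.77 and 0.48 in WT. Only WT replicate 4 came near the Glis3KO2 arrays, and the difference was -0.59 (SE 0.15, adjusted p = 0.0459). A dimmer Tcf7 probe gave -0.79 and was not called in a fit of all probes (adjusted p = 0.0547). Tcf7l2 was not called: its brightest probe gave 0.09 and its 3 dimmer probes -0.47, -0.61 and -0.60.

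Of the 10 Frizzled receptors Fzd3, a receptor known from planar polarity, was the 1 called. It had -0.91, -0.65, -0.40 and -0.72 in Glis3KO2 and 0.14, -0.22, -0.10 and 0.01 in WT (-0.63, SE 0.14, adjusted p = 0.039), and a second probe gave -0.66. The other Frizzled differences lay between -0.96 for Fzd10 and 0.55 for Fzd9. The Fzd3 probe matches the telomeric unit with a score of 9. Genes whose probes match it at a score of 7 or more had a median difference of -0.05, against -0.07 for the genes without such a match. The co-receptors Lrp5 (-0.51, adjusted p = 0.0743) and Lrp6 (-0.50, adjusted p = 0.114) were below every WT array on every Glis3KO2 array but did not pass the test.

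None of the secreted inhibitors was called at 1 week. The differences of the 4 secreted Frizzled-related proteins ran between -0.61 for Sfrp2 and 0.53 for Sfrp4 (adjusted p = 0.0588), and those of the 3 tested Dickkopf genes between -0.77 for Dkk1 and 0.11 for Dkk2. The 34 tested genes that were not called ran between -0.96 and 0.61. Wnt8a was at background on every array, and Wnt16, Dkk4 and Rspo3 were above it on 1 or 2 arrays of a group at most, so these 4 were not tested.

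**Figure D1:**
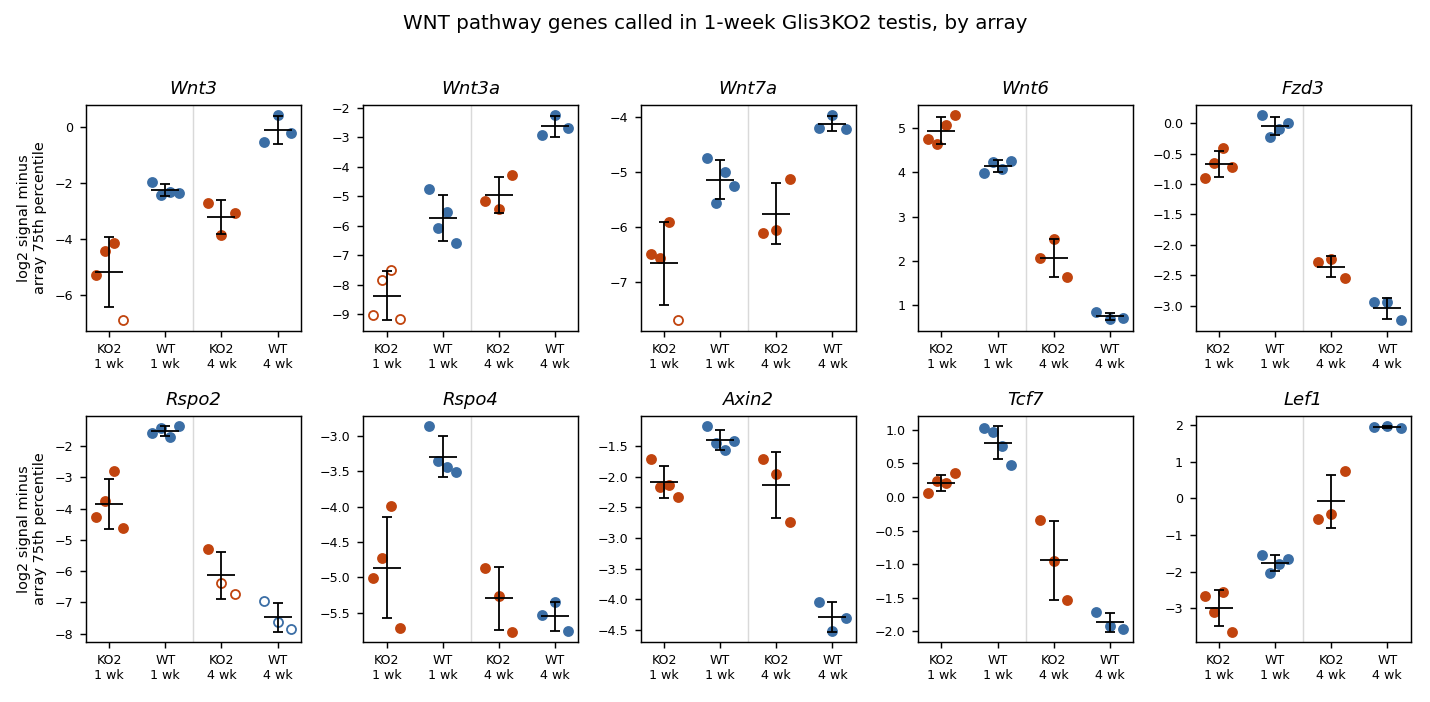
Log2 signal relative to the array's 75th percentile (vertical axis, a separate scale for each gene) of the 10 WNT pathway genes called at 1 week, with Glis3KO2 (KO2) left of WT at 1 week and at 4 weeks. Points are arrays, open where not well above background, and bars are the mean and SD; the 9 genes called lower have all 1-week Glis3KO2 points below all WT points, and Wnt6 has them above.

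Many 1-week calls hung on single arrays, among the WNT genes and over all genes. The number of WNT genes called was 0 without WT replicate 1, 1 without WT replicate 2, 1 without WT replicate 3, 2 without Glis3KO2 replicate 1 and 3 without Glis3KO2 replicate 4, against 12 without WT replicate 4. It was 7 without Glis3KO2 replicate 2 and 8 without Glis3KO2 replicate 3. Of all 22678 genes tested 2277 were called as reported. In the same order of arrays left out, the counts of all genes were 279, 377, 314, 563, 844, 3535, 2502 and 2103. Without Glis3KO2 replicates 1 and 4, which carried Crisp1 signal, Wnt3 alone of the WNT genes was called, and 198 of all genes. All 10 genes kept their direction under each of the 22 alternatives run. With slide as a block 4 WNT genes were called, Wnt3, Wnt7a, Rspo2 and Lef1, and 502 of all genes. Within slide 1 and within slide 2 the difference of Wnt3 was -2.58 and -2.03, that of Rspo2 -1.89 and -2.37, that of Lef1 -0.93 and -1.26, and that of Wnt6 0.89 and 0.40. With arrays scaled to the median in place of the 75th percentile, 5 WNT genes were called higher and 6 lower, with 12.7% of all genes higher and 4.47% lower, and the median of all genes was 0.19. Quantile normalization gave 4 WNT genes higher and 8 lower (6.31% and 5.73% of all genes), and normexp 1 higher and 7 lower (4.49% and 4.22%).

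**Figure D2:**
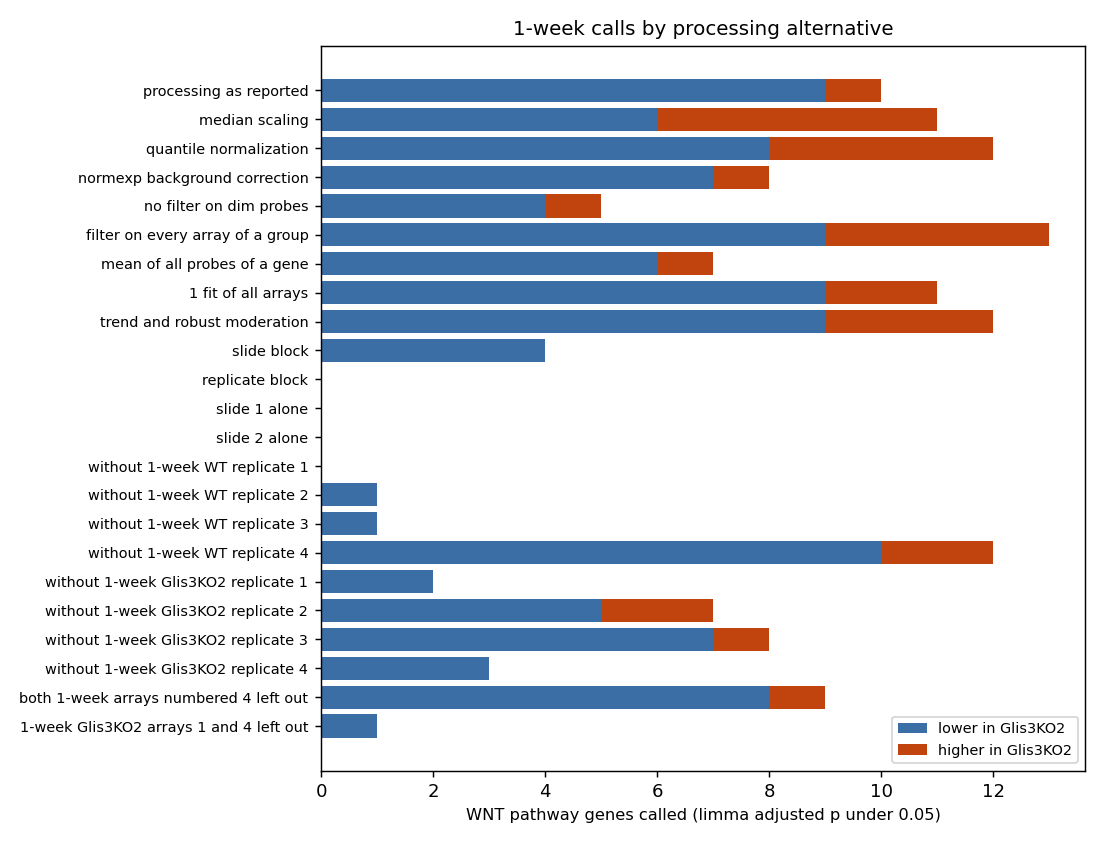
Number of WNT pathway genes called lower (blue) or higher (dark orange) in 1-week Glis3KO2 (horizontal axis, genes) under the reported processing and each alternative (rows). The count is 10 as reported and 0 with the replicate block, within either slide and without WT replicate 1.

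Markers of early germ cells moved with these genes. The 9 measured markers of undifferentiated spermatogonia had a summed level of 0.297 to 0.617 of the 75th percentile signal in 1-week Glis3KO2 and 1.95 to 2.49 in WT. Of the 8 tested 8 were lower, and Ret was above background on 0 of 4 Glis3KO2 arrays and 1 of 4 WT arrays. Of 6 general germ cell markers 3 were lower (summed 6.88 to 28.7 in Glis3KO2 and 34.9 to 51.7 in WT). Higher were 6 of 14 Sertoli cell markers (397 to 511 in Glis3KO2 and 290.2 to 316 in WT), 5 of 9 macrophage markers (16.9 to 26.2 in Glis3KO2 and 9.13 to 14.5 in WT) and 4 of 9 Leydig cell markers (48.8 to 55.6 in Glis3KO2 and 33.5 to 38.1 in WT). Their part in the WNT results was not tested, and in whole tissue fewer cells of a type and less RNA per cell cannot be told apart. Dim probes also ran lower in Glis3KO2: the median difference of all genes was -0.61 in the dimmest of 4 equal bins of brightness and 0.23 in the brightest. With normexp background correction the difference of Wnt3a was -0.31 and that of Wnt7a -0.20, and neither was called.

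At 4 weeks the genes called higher included receptors, secreted inhibitors and Axins, and those called lower were mostly ligands. Of 40 tested genes 20 were higher and 9 lower in Glis3KO2, a share of 72.5%, against 69.2% of all 21338 genes tested (35.1% higher and 34.1% lower), so the share called was close to that of the array. The median difference was 0.67, against 0.03 for all genes. Of the 9 genes called lower 7 were ligands, beside Lrp5 and Lef1, and of the 16 tested ligands 4 were higher and 7 lower. With normexp 19 genes were called higher and 5 lower, against 32.3% and 28.6% of all genes, and the ligands were 3 higher and 3 lower. Differences between roles were not tested.

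The probes of the 2 genes with the largest rise in 4-week Glis3KO2 are given, from the same files and build. The Wnt4 probe is drawn over a span of 569 bases.
Sfrp4, chr13:18999998-19000057, plus strand: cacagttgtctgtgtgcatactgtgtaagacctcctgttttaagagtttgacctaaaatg
Wnt4, chr4:136674216-136674784, plus strand: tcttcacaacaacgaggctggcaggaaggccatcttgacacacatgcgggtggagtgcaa

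Sfrp4, a secreted protein that binds WNT ligands, had the largest difference of the 40. It read -0.06, -0.37 and -1.10 in 4-week Glis3KO2 and -5.24, -5.45 and -5.61 in WT. The gap between the groups was several times the spread within either, 30.3-fold (4.92, SE 0.28, limma adjusted p = 0.00044). Sfrp1, of the same family, read -0.31, -1.04 and -1.36 in Glis3KO2 and -1.95, -2.80 and -2.93 in WT (1.66, SE 0.36, adjusted p = 0.00563). Sfrp2 (0.14, adjusted p = 0.685) and Sfrp5 (-0.15, adjusted p = 0.613) overlapped between the genotypes.

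Of the 16 tested ligands 4 were higher. Wnt4 had -3.26, -1.93 and -2.06 in Glis3KO2 and -5.00, -5.22 and -5.39 in WT, 6.90-fold higher (2.79, SE 0.36, adjusted p = 0.000982). Wnt9a had -2.13, -1.98 and -2.72 in Glis3KO2 and -3.86, -4.24 and -3.96 in WT (1.75, SE 0.23, adjusted p = 0.00105), and with the mean of its probes 0.82. Neither gene overlapped between the genotypes. Wnt6, higher at 1 week as well, differed by 1.32 (adjusted p = 0.00247) and Wnt5b by 0.40 (adjusted p = 0.0381). A dimmer Wnt5b probe gave 0.26 and was not called in the fit of all probes (adjusted p = 0.162).

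The 7 ligands called lower at 4 weeks included the 3 called lower at 1 week. Wnt3 had -2.73, -3.89 and -3.07 in Glis3KO2 and -0.55, 0.41 and -0.23 in WT, 8.60-fold lower (-3.11, SE 0.37, adjusted p = 0.000784). Its dimmer probe differed by -1.05 in the fit of all probes, in the same direction but less. Wnt3a had -5.16, -5.45 and -4.28 in Glis3KO2 and -2.94, -2.24 and -2.69 in WT, 5.05-fold lower (-2.34, SE 0.34, adjusted p = 0.00132). Unlike at 1 week it was above background on all 6 arrays. Wnt7a had -6.10, -6.06 and -5.11 in Glis3KO2 and -4.19, -3.96 and -4.21 in WT (-1.63, SE 0.28, adjusted p = 0.00236).

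The other 4 ligands called lower were dimmer or changed less. Wnt10b read -6.86, -7.38 and -6.80 in Glis3KO2, above background on 1 of 3 arrays, and -5.56, -5.59 and -5.49 in WT (-1.47, SE 0.19, adjusted p = 0.00099). Wnt2 read -3.46, -3.43 and -3.06 in Glis3KO2 and -2.37, -2.11 and -2.38 in WT (-1.03, SE 0.17, adjusted p = 0.00212). Both were separated by genotype, Wnt2 well above background. Wnt7b read -3.66, -3.66 and -3.54 in Glis3KO2 and -2.98, -2.81 and -3.07 in WT (-0.67, SE 0.14, adjusted p = 0.00533). Wnt8b read -6.57, -6.37 and -6.40 in Glis3KO2 and -5.93, -5.57 and -5.85 in WT (-0.66, SE 0.16, adjusted p = 0.00867). These 4 differences depended in part on the background correction: with normexp they were -0.09 for Wnt10b, -0.73 for Wnt2, -0.39 for Wnt7b and 0.05 for Wnt8b, and that of Wnt7a was -0.48, with only Wnt2 still called. The 5 tested ligands that did not pass, Wnt1, Wnt5a, Wnt9b, Wnt10a and Wnt11, had differences between -0.36 for Wnt1 and 0.68 for Wnt5a.

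The Frizzled receptors ran in one direction at 4 weeks. All 10 had a positive difference, with a median of 1.32, and 8 were called higher and none lower, where 35.1% of all genes were called higher. These counts were the same with median, quantile and normexp processing. Fzd7 had -1.12, -1.31 and -1.99 in Glis3KO2 and -3.47, -3.71 and -3.53 in WT (2.09, SE 0.25, adjusted p = 0.000776). Fzd1 had 0.31, 0.59 and 0.21 in Glis3KO2 and -1.20, -1.65 and -1.47 in WT (1.81, SE 0.18, adjusted p = 0.00062). Fzd6, a receptor known from hair and planar polarity in the mouse, had -0.89, -0.99 and -1.35 in Glis3KO2 and -2.56, -2.85 and -2.64 in WT (1.61, SE 0.18, adjusted p = 0.000695). In each the lowest Glis3KO2 array was above the highest WT array. The other receptors called, Fzd2, Fzd3, Fzd4, Fzd8 and Fzd10, differed by 0.69 to 1.38. A dimmer Fzd10 probe gave 0.59 and was not called in the fit of all probes (adjusted p = 0.07). Fzd5 (0.66, adjusted p = 0.0523) and Fzd9 (0.34, adjusted p = 0.278) did not pass.

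The 2 co-receptors did not follow the Frizzled receptors. Lrp5 had -1.96, -1.98 and -1.68 in Glis3KO2 and -0.98, -1.29 and -1.38 in WT (-0.66, SE 0.17, adjusted p = 0.013), and its call was lost without WT replicate 1 (-0.54, adjusted p = 0.0609). Lrp6 differed by 0.46 and was not called (adjusted p = 0.209). Of the R-spondins Rspo1 was called: it had 1.80, 0.85 and 0.40 in Glis3KO2 and -0.04, -0.64 and -0.44 in WT (1.39, SE 0.37, adjusted p = 0.0129). Rspo4 was not (0.25, adjusted p = 0.41). Rspo2 was above background on Glis3KO2 replicate 1 alone, at -5.30, and on 0 of 3 WT arrays, and was not tested. Of the Dickkopf genes Dkk3, the most divergent of the family, differed by 1.16 (adjusted p = 0.0169). Dkk1 was at background on all 3 Glis3KO2 arrays and above it on 2 of 3 WT arrays, and was not tested. Dkk2, Dkk4, Rspo3, Wnt2b and Wnt8a were at background on all 6 arrays, and Wnt16 was above it on 1 array of each genotype.

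Both Axins were higher at 4 weeks. Axin2 had -1.72, -1.96 and -2.73 in Glis3KO2 and -4.04, -4.51 and -4.30 in WT, 4.43-fold higher (2.15, SE 0.29, adjusted p = 0.00108), and Axin1 differed by 0.78 (adjusted p = 0.00412). The TCF/LEF factors went different ways. Tcf7l2, which encodes TCF4, had 0.58, 0.14 and -0.76 in Glis3KO2 and -1.97, -2.29 and -2.13 in WT (2.12, SE 0.34, adjusted p = 0.00177). Its 2 other probes above the filter gave 0.85 and 1.30, smaller but in the same direction. Tcf7 differed by 0.92 (adjusted p = 0.0286). Lef1 had -0.55, -0.44 and 0.74 in Glis3KO2 and 1.95, 1.97 and 1.93 in WT, 4.10-fold lower (-2.03, SE 0.34, adjusted p = 0.00212), with -2.05 for a second probe.

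**Figure D3:**
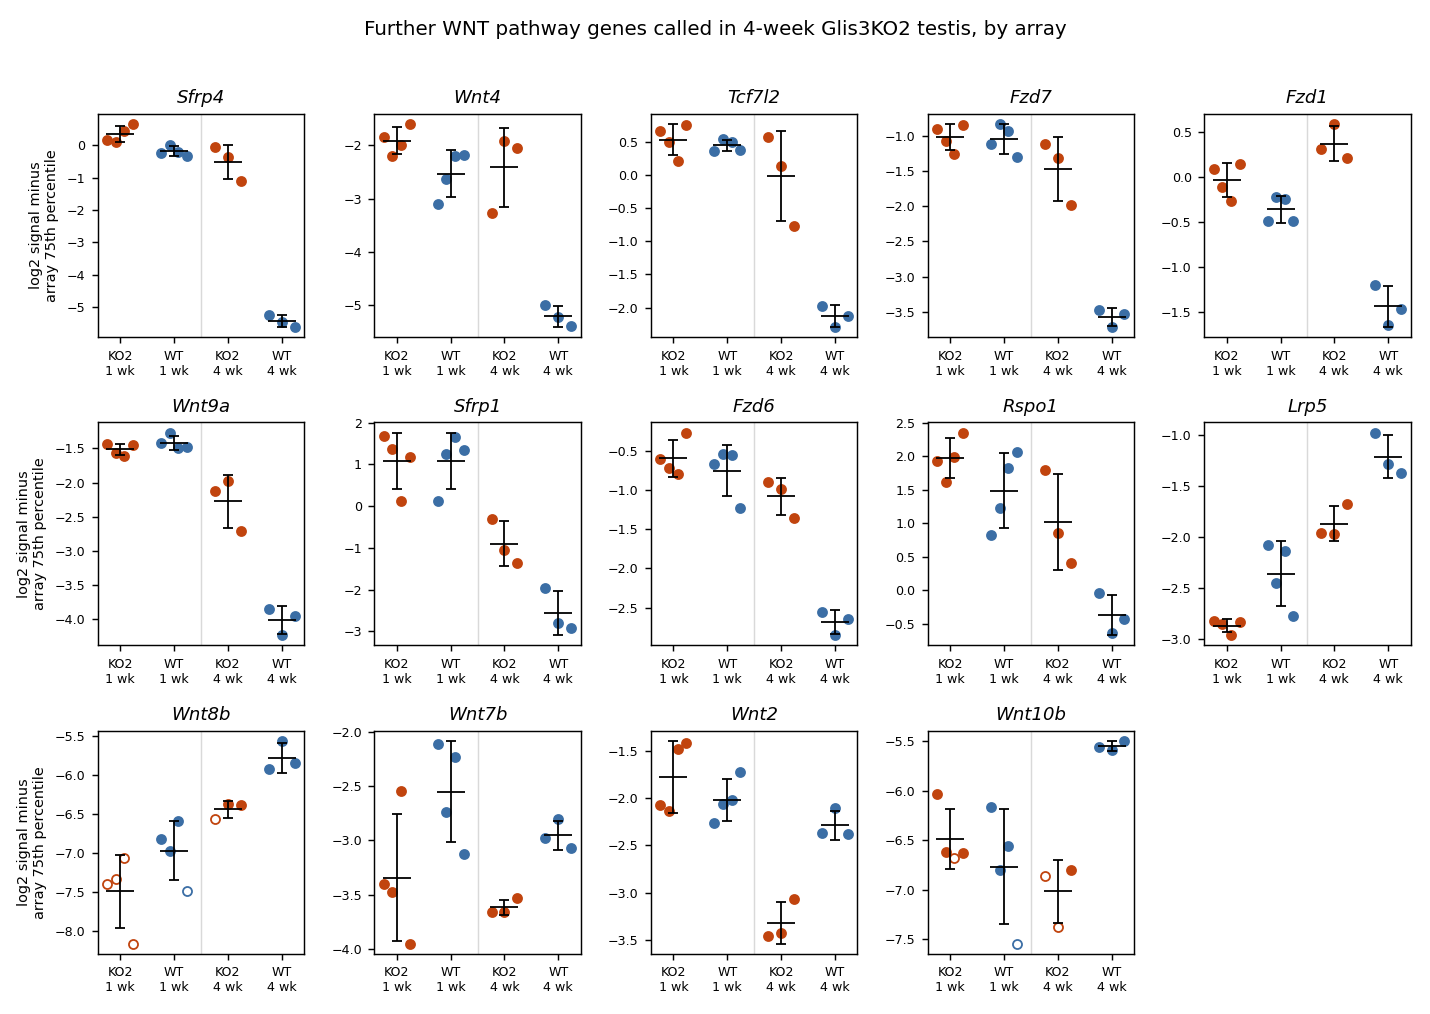
Log2 signal relative to the array's 75th percentile (vertical axis, a separate scale for each gene) of the 14 further genes described at 4 weeks, ordered by their 4-week difference, with Glis3KO2 (KO2) left of WT at each age. Points are arrays, open where not well above background, with mean and SD; the 9 genes from Sfrp4 to Rspo1 have all 4-week Glis3KO2 points above the WT points, and the 5 from Lrp5 to Wnt10b have them below.

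Cell type markers moved at 4 weeks too. All 10 round spermatid, 10 elongating spermatid and 10 spermatocyte markers were lower in Glis3KO2, with summed levels of 16.1 to 44.0 in Glis3KO2 against 114 to 127 in WT for round spermatids and of 71.9 to 177 in Glis3KO2 against 701 to 1027 in WT for elongating spermatids. Of 14 Sertoli cell markers 13 were higher, with summed levels of 385 to 517 in Glis3KO2 and 126 to 137 in WT. Interstitial fibroblast-like markers were higher in 6 of 9 (104 to 158 in Glis3KO2 and 29.2 to 51.0 in WT). Peritubular markers were higher in 5 of 8 and lower in 1 (41.0 to 79.5 in Glis3KO2 and 27.6 to 29.6 in WT). Macrophage markers were higher in 7 of 9 and lower in 1 (24.2 to 34.6 in Glis3KO2 and 12.5 to 16.4 in WT). Endothelial markers were higher in 5 of 7 (2.82 to 4.83 in Glis3KO2 and 1.75 to 2.09 in WT). All markers of these 8 lists were above background on every 4-week array. Leydig cell markers, higher at 1 week, were higher in 2 of 9 and lower in 4 (10.7 to 32.7 in Glis3KO2 and 33.5 to 42.8 in WT). Of 8 tested markers of undifferentiated spermatogonia 2 were higher and 1 lower. The part of these cell types in the WNT results was not tested. Without WT replicate 1, the array with the most Crisp1 signal, 18 WNT genes were called higher and 8 lower. Of all 21338 genes tested 6516 were then higher and 6381 lower. Within slide 4 and within slide 5, which holds 1 array of each genotype, the difference of Sfrp4 was 5.21 and 4.35, that of Fzd7 2.28 and 1.72, that of Lef1 -2.44 and -1.23, and that of Wnt3 -2.91 and -3.49.

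**Figure D4:**
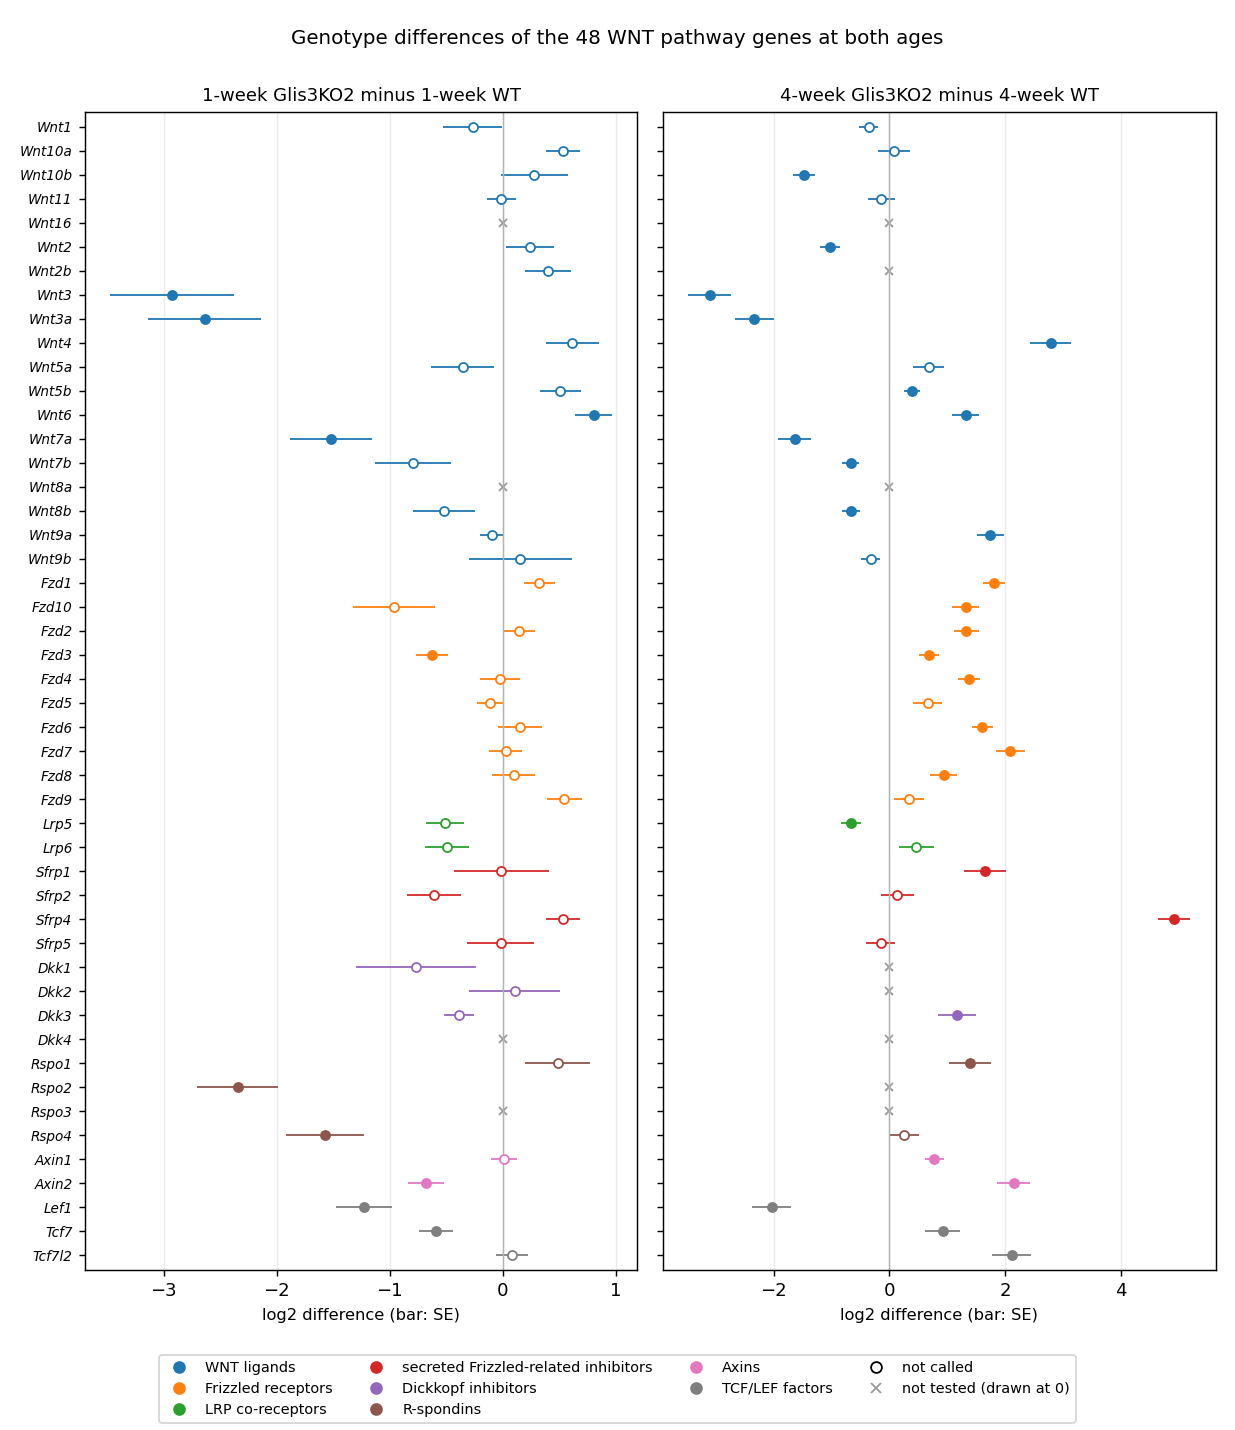
Log2 difference of Glis3KO2 minus WT (horizontal axis, with a wider scale at 4 weeks) for the 48 WNT pathway genes at 1 week (left) and 4 weeks (right), grouped and coloured by role. Bars are the SE, filled points were called, open points were not and crosses were not tested; the 10 Frizzled receptors all lie above 0 at 4 weeks, where 8 are filled.

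The next question was whether the genotype difference itself changed with age, which 2 separate fits do not test. In a fit of all 14 arrays, the 4-week genotype difference minus the 1-week one was positive and called for 21 of 44 WNT genes and negative and called for 2, a share of 52.3%, against 51.0% of all 23763 genes (29.3% positive and 21.6% negative). With median scaling it was positive for 16 and negative for 3, against 20% and 27.5% of all genes. Of the 10 Frizzled receptors 9 had a positive call, and 7 with median, quantile or normexp processing. Dimmer probes of Fzd2 (0.70, adjusted p = 0.0733) and Fzd8 (0.22, adjusted p = 0.71) were not called in a fit of all probes. With slide as a block, which leaves the Glis3KO2 array alone on its slide without weight, 19 WNT genes were positive and 3 negative. Of all 23763 genes 6747 were then positive and 5146 negative. The 6 with the smallest adjusted p were Sfrp4 (4.39, SE 0.32, adjusted p = 7.23e-06), Axin2 (2.83, SE 0.33, adjusted p = 6.04e-05), Wnt9a (1.84, SE 0.24, adjusted p = 0.000112), Fzd7 (2.07, SE 0.28, adjusted p = 0.000149), Fzd1 (1.48, SE 0.22, adjusted p = 0.000249) and Rspo2 (3.68, SE 0.58, adjusted p = 0.000334). In each the Glis3KO2 difference was more positive at 4 weeks, and all 6 were called with the slide block, with values of 1.54 for Fzd1 to 4.50 for Sfrp4. The 1-week values behind this were 0.18, 0.11, 0.46 and 0.66 in Glis3KO2 and -0.22, 0.03, -0.20 and -0.32 in WT for Sfrp4. They were -1.44, -1.56, -1.60 and -1.45 in Glis3KO2 and -1.43, -1.27, -1.49 and -1.48 in WT for Wnt9a. Neither gene was called at 1 week. A dimmer Wnt9a probe, at background in 4-week WT, gave a contrast of 0.34, not called in a fit of all probes (adjusted p = 0.528). For Rspo2 the 4-week signals lay mostly at background, on 5 of 6 arrays, so its 3.68 is not an exact size: it was 1.99 with normexp and 1.66 with the mean of its probes, called in both.

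Axin2, Tcf7 and Fzd3 were called lower in Glis3KO2 at 1 week and higher at 4 weeks. Their contrasts between the ages were 2.83, 1.51 (adjusted p = 0.00221) and 1.31 (adjusted p = 0.000418). At 4 weeks Tcf7 read -0.34, -0.96 and -1.53 in Glis3KO2 and -1.71, -1.92 and -1.96 in WT, and Fzd3 read -2.29, -2.23 and -2.55 in Glis3KO2 and -2.94, -2.95 and -3.24 in WT. Neither gene overlapped between the genotypes at either age. With median scaling their 1-week differences were -0.42 for Axin2, -0.33 for Tcf7 and -0.37 for Fzd3, none of them called. With slide as a block they were -0.62, -0.65 and -0.62, also not called (limma adjusted p = 0.129, 0.129 and 0.131). Of 22 alternatives the 1-week call was lost in 14 for Axin2, 16 for Tcf7 and 14 for Fzd3. The 2 genes with a negative contrast were the ligands Wnt10b (-1.75, adjusted p = 0.00297) and Wnt2 (-1.27, adjusted p = 0.00318). For 3 of the genes called lower at both ages the contrast was not called: Wnt3 -0.18 (SE 0.76, 95% interval -1.83 to 1.46), Wnt7a -0.11 (SE 0.52) and Lef1 -0.81 (SE 0.44, -1.77 to 0.15). The intervals of Wnt3 and Lef1 are wide, and the SE of Wnt7a was 0.52. A change of the genotype difference with age was thus not detectable for these 3 genes rather than absent. The 1-week difference of Wnt7a was also only -0.20 with normexp background correction, so the size of its contrast is uncertain. Wnt3a, the fourth gene called lower at both ages, was at background on all 4 1-week Glis3KO2 arrays. Its 1-week difference is thus only a bound and its contrast has no exact size. The dimmer Wnt3 probe had a called contrast of 1.64 in the fit of all probes, so for Wnt3 the answer depends on the probe.

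WT testis at 4 weeks was set against WT testis at 1 week to place these genes in normal development. Of 44 tested WNT genes 9 were higher and 28 lower at 4 weeks, a share of 84.1%, against 81.0% of all 23683 genes (31.3% higher and 49.7% lower). The median difference of 4-week WT minus 1-week WT was -1.54, against -0.51 for all genes. This comparison shares its 4-week WT arrays with the 4-week genotype comparison and its 1-week WT arrays with the 1-week one, so the values below are not independent of those above. Slide and age cannot be told apart here.

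The 6 genes furthest below their 1-week level were Rspo2, Sfrp4, Sfrp2, Fzd2, Sfrp1 and the ligand Wnt6. Rspo2, given by array above, was at background on the 3 4-week WT arrays and at least 34.8-fold lower (adjusted p = 4.52e-07). Sfrp4 was lower by a log2 difference of -5.25 (SE 0.13, adjusted p = 8.93e-08), or 38.1-fold. Sfrp2 had -4.09, -4.90 and -4.73 in 4-week WT and -0.10, 0.74, 0.79 and 0.22 in 1-week WT (-4.99, SE 0.29, adjusted p = 3.39e-06). The ages did not overlap in any of these. Sfrp1, with 0.12, 1.25, 1.65 and 1.34 in 1-week WT, differed by -3.65 (SE 0.41, adjusted p = 0.000119). Fzd2 had -2.14, -2.65 and -2.31 in 4-week WT and 1.19, 1.28, 1.31 and 1.41 in 1-week WT (-3.66, SE 0.13, adjusted p = 4.55e-07). Wnt6 had 0.84, 0.69 and 0.70 in 4-week WT, 10.5-fold below 1 week (-3.40, SE 0.10, adjusted p = 2.15e-07).

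As a class 9 of 10 Frizzled receptors, 3 of 4 secreted Frizzled-related proteins, all 3 tested R-spondins and both Axins were called lower at 4 weeks, where 49.7% of all genes were. The exceptions were Fzd9 (0.33, adjusted p = 0.087) and Sfrp5, which was higher (1.02, adjusted p = 0.00734). With quantile normalization 1 Frizzled receptor was called higher.

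The 9 genes higher with age were Lef1, Lrp5, Sfrp5 and 6 ligands, while 6 other ligands were lower. Of the 17 tested ligands 35.3% were thus higher, against 31.3% of all genes. Lef1 was 13.1-fold higher in 4-week WT (3.71, SE 0.13, adjusted p = 3.38e-07), and its second probe gave 3.55. Wnt3a was 8.65-fold higher (3.11, SE 0.43, adjusted p = 0.000382). Wnt3 differed by 2.15 (SE 0.24, adjusted p = 0.000113) on its brighter probe and by -1.56 on its dimmer probe, so its direction with age is not settled by the array. Wnt10b, with -6.17, -6.80, -6.56 and -7.55 in 1-week WT, differed by 1.22 (SE 0.30, adjusted p = 0.00759). Wnt8b, with -6.82, -6.99, -6.59 and -7.49 in 1-week WT, differed by 1.19 (SE 0.22, adjusted p = 0.00178). In both the last 1-week value was at background. Lrp5, with -2.08, -2.45, -2.14 and -2.77 in 1-week WT, differed by 1.15 (SE 0.20, adjusted p = 0.00116). Wnt1, Wnt7a and Sfrp5 completed the 9, with differences of 1.02 to 1.05. Cell type markers also differed between the ages: all 10 spermatocyte, 10 round spermatid and 10 elongating spermatid markers were higher at 4 weeks, and 12 of 14 Sertoli, 9 of 9 fibroblast-like and 8 of 8 peritubular markers were lower. Their part in the WNT values was not tested.

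A further 69 genes of WNT secretion, reception, relay, planar polarity and response were counted in the same fits. At 1 week 66 were tested, 2 were higher and 6 lower in Glis3KO2 (3.03% and 9.09%, median 0.06), against 3.90% and 6.14% of all genes. The 2 were Gpr177, which encodes the WNT secretion carrier Wntless (0.57, adjusted p = 0.0428), and Mesdc2, a chaperone of the LRP co-receptors (0.68, adjusted p = 0.049). Those lower with the smallest adjusted p were T, the brachyury transcription factor, at background on all 4 Glis3KO2 arrays and at least 2.22-fold lower (adjusted p = 0.00126), Lgr5, a receptor for R-spondins (-1.16, adjusted p = 0.0103), Fst, which encodes the activin antagonist follistatin (-0.96, adjusted p = 0.0141), and Gsk3b, a kinase of the destruction complex (-1.11, adjusted p = 0.0165). The others were Wif1, a secreted WNT antagonist, and the co-repressor gene Tle3.

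At 4 weeks 62 of these were tested, 39 were higher and 9 lower in Glis3KO2 (62.9% and 14.5%, median 1.04), against 35.1% and 34.1% of all genes (median 0.03). Gpr177 was higher by 3.54, Fst by 3.49, Myc, a growth regulator and known target of the pathway, by 2.92, and Prickle1 of planar polarity by 1.91. Lower were the co-repressor genes Ctbp2 (-1.27) and Tle3 (-1.94), Gsk3b (-1.86) and Kremen2, a receptor for Dickkopf proteins (-1.77). The contrast between the ages was called for 40 as positive and 8 as negative (60.6% and 12.1%), against 29.3% and 21.6% of all genes, or 20% and 27.5% with median scaling. Those with the smallest adjusted p were Fst (4.46), Gpr177 (2.97), Lgr4 (2.95) and Gpc4 (2.69) on the positive side and Ctbp2 (-1.51), Sostdc1 (-2.34), Dvl1 (-1.39) and Dkkl1 (-2.51) on the negative side. Between 4-week WT and 1-week WT 8 were higher and 46 lower (12.1% and 69.7%), against 31.3% and 49.7% of all genes. Dkkl1, known in the mouse from the acrosome of spermatids, was higher by 9.59, Tle3 by 2.27, Gsk3b by 2.09 and Dvl1, a relay protein below the receptors, by 2.07. Lower were Celsr1 and Vangl1 of planar polarity (-4.84 and -3.36), the WNT co-receptor gene Ryk (-2.19) and the kinase gene Csnk1e (-3.29).

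Promoter sequences were looked for among all 48 genes, called or not. RefSeq windows of the GRCm38.p6 assembly, 250 bases before to 50 after each start, were at hand for 31 of the 48 genes, in 39 windows. The letters CTTTGA, a core of TCF/LEF sites, were searched on both strands and occur in 16% of all 32851 windows. They occur in 5 of the 39 windows, of 5 of the 31 genes: Dkk1, Fzd1, Lef1, Wnt11 and Wnt5b. Of these, Dkk1 and Wnt11 were called in no comparison. TGGGGGGT, a core of GLIS sites, occurs in 1.53% of all windows and in 1 of the 39 windows, of the gene Wnt5b. GACCACCCA, the core of GLI sites, occurs in 0.253% of all windows and in none of these genes. A match is a description of letters and not of binding. The Lef1 window is printed since Lef1 was lower in Glis3KO2 at both ages and encodes a protein of the TCF/LEF family itself; both matches, TCAAAG on the strand shown, are in capitals. It is the only 1 of the 4 Lef1 windows that holds the letters.
Lef1 promoter window, chr3:131156044-131156343, plus strand: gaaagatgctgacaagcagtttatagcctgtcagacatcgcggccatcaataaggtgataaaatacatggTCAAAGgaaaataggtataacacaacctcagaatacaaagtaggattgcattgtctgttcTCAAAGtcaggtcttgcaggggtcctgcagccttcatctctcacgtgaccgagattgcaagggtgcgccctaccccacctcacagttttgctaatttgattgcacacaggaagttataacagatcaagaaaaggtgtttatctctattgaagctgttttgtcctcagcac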

How the data were processed

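Values are the intensity columns of the scanner files that the authors deposited: per the file headers, Agilent Feature Extraction 9.5 gave each spot a processed intensity, background-subtracted and detrended within the array, beside its mean and background signals, with no step between arrays. The deposited flags (other) mark non-uniform and well-above-background spots. The authors' series table equals the processed intensity on all 45018 spots of each array.

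Processed intensities were put on the log2 scale, non-uniform spots were dropped, spots of a probe were averaged and the array's 75th percentile over non-control probes was subtracted. The brightest probe over the 4 groups stood for a gene; 18 of the 48 genes have several probes. Genes with 3 or more arrays well above background in 1 or more of the groups compared entered limma 3.58.1 in R 4.3.3 (lmFit, eBayes) for each age, for WT between ages, and for the difference of genotype differences over 14 arrays. Benjamini-Hochberg adjustment ran over all genes, and the script was tested on simulated data. Where a group was at background on all its arrays, the fold is a bound against the lowest signal well above background. Such a bound holds for the background correction used, and the limma p-value of that gene rests on background signal in that group. The number of arrays limits the precision.

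Slides and scan days came from the files: 1-week Glis3KO2 and WT share slides 1 and 2, Glis3KO2 replicate 4 is alone on slide 3, which was scanned on another day, and 4-week arrays are on slides 4 and 5. Replicate numbers did not pair the samples: same-number correlations of deviations ran from -0.14 to 0.15 at 1 week and from -0.25 to 0.12 at 4 weeks.

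The genes, the 69 further pathway genes and 116 cell type markers (114 with a probe) were chosen with earlier results of these data known. Named are all genes called at 1 week, up to 10 per direction at 4 weeks by size, 6 by adjusted p between ages, 6 per direction in WT by size, and up to 4 pathway genes per direction by adjusted p; others are named as counts or ranges require. All 48 names match current RefSeq symbols, 44 by accession. The repeat score is the best ungapped match to repeated CCCTAA. Alternatives varied scaling, background correction, filter, probe choice, fit, slide and replicate blocks, and arrays; leaving out pairs of 1-week arrays was chosen after seeing the data.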

Additional observations from a re-analysis of the deposited data

Results flagged for a closer look

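Values of 26 named genes were examined for single arrays far from the rest in the 1-week groups of 4, 52 groups in all, where chance marks about 1 in 20. Wnt10b on 1-week Glis3KO2 replicate 1 was high at -6.03, with the next array at -6.62. Lrp5 on 1-week Glis3KO2 replicate 3 was low at -2.97, with the next array at -2.85, a small gap within a very tight group. Both are near what chance gives, and neither gene was called at 1 week.

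The 26 named genes were chosen by calls in these fits, the contrast between ages among them. A high count of called contrasts was thus built in. That contrast was called for 51.0% of all 23763 genes tested and for 52.3% of the 44 WNT genes tested. The genotype difference differed between the ages, by this contrast in 1 limma fit, for 16 of the 26 named genes. It was more positive at 4 weeks for the secreted inhibitors Sfrp4 (4.39) and Sfrp1 (1.67), the ligands Wnt4 (2.17) and Wnt9a (1.84), and the receptors Fzd7 (2.07), Fzd1 (1.48), Fzd6 (1.45), Fzd3 (1.31) and Fzd2 (1.19). It was also more positive for the R-spondins Rspo2 (3.68, with 4-week signals mostly at background) and Rspo4 (1.82), the scaffold Axin2 (2.83), and the factors Tcf7l2 (2.03) and Tcf7 (1.51). It was more negative at 4 weeks for the ligands Wnt10b (-1.75) and Wnt2 (-1.27). The dimmer Rspo4 probe gave -0.28 for this contrast in a fit of all probes (adjusted p = 0.806), opposite to the brighter one. Dimmer probes of Wnt9a (0.34, adjusted p = 0.528) and Fzd2 (0.70, adjusted p = 0.0733) were positive but not called there. Markers of cell types moved with genotype differently at the 2 ages as well, undifferentiated spermatogonia with 7 of 8 tested markers more positive at 4 weeks and Sertoli cells with 11 of 14, and their part in these values was not tested.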

How the results depend on the processing

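In 1-week Glis3KO2 the 10 WNT genes kept their direction in each alternative, but 111 of 220 single calls were lost, from 5 of 22 for Rspo2 and 7 for Wnt3 to 16 for Tcf7. The count of WNT genes called was 5 with no filter on dim probes, 4 with slide as a block, 0 with the replicate block, 0 within slide 1 and 0 within slide 2, where 4 and 3 arrays remain, and 1 without Glis3KO2 replicates 1 and 4; leaving out 1 array gave 0 to 12. Over all genes the count of 2277 was 3899 with median scaling (2886 higher and 1013 lower, in place of 885 and 1392), 958 with no filter, 3865 in 1 fit of all arrays, 3872 with trend and robust moderation, 502 with slide as a block, 391 with the replicate block, 0 within either slide, 198 without Glis3KO2 replicates 1 and 4 and 279 to 3535 without 1 array. The replicate numbers share only a number (1 of 4 arrays at 1 week and 1 of 3 at 4 weeks correlated best with its own), so a call lost under that block is not read as a weaker effect.

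In the other comparisons the total counts stayed within 1.5 times their values: 24 to 32 WNT genes at 4 weeks (28 with the replicate block), 19 to 26 for the contrast between ages (20 with the block) and 37 to 39 for WT between ages (37 with the block). By direction, the 9 lower at 4 weeks were 5 with normexp, where the 7271 lower over all genes were 6104. The 2 negative contrasts were 4 with quantile normalization or normexp, where the 5136 over all genes were 5827 and 5469. Of the single calls there, 5 of 323 were lost and 1 reversed at 4 weeks (Wnt8b, 0.0518 with normexp), 0 of 150 were lost for the contrast and 1 of 204 for WT age (Wnt3, 0.29 with the mean of its probes). With normexp the 1-week Glis3 difference was -0.46 (exact permutation p = 0.143). Median scaling gave a median of all genes of 0.19 in place of -0.07 at 1 week and of -0.09 in place of 0.24 for the contrast. The cause of these changes was not tested. Signals near background limit Wnt3a, Wnt7a, Wnt8b, Wnt10b and Rspo2.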
